A study of Homo sapiens with 9 samples.

Results

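The genes described here are the 55 that copy the genome and prepare it for copying, measured in MDA-MB-231 cells, a human triple-negative breast cancer line, that carried 1 of 3 lentiviral hairpins. They were chosen as a fixed list of symbols, with earlier results of these data known. All 55 were found among the 11963 genes named on the array, through 82 probe sets. For the 20 genes with several probe sets, the one with the highest mean over the 9 arrays was used. The shco4 and shco2 lines were stably transduced with pLKO vectors whose hairpins target Coco (DAND5), a secreted antagonist of BMP, Nodal and Wnt ligands, and the scramble line carried a control hairpin in a lentiviral vector. Each line had 3 arrays labelled as biological replicates, and all cells were grown in DMEM with 10% fetal bovine serum and no further agent. The replicates are of 1 transduced line per hairpin as far as the labels say, so p-values measure the spread between arrays and not between separate transductions. Values are array intensities in arbitrary units on a linear scale, and differences are given on the log2 scale.

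Replication starts in G1, when the origin recognition complex, CDC6 and CDT1 load the MCM2-7 ring onto DNA, a step called licensing. The kinase CDC7 with its partner DBF4, together with CDC45 and the GINS complex, then turns that ring into a running helicase in S phase. Polymerases, the sliding clamp PCNA and a supply of deoxynucleotides build the daughter strands, and histone chaperones package them. Many of these genes are transcribed at the border of G1 and S by E2F factors, so their messages mark cells that are entering or passing through S phase. In an RNA sample of a whole culture, fewer cells in S phase and less RNA per cell cannot be told apart.

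Expression of every member could be measured: no array lay at the floor of 16 for any of the 55, and all had a mean intensity of at least 64. No probe set was named DAND5, so the knockdown itself was not analysed here. The 8 line markers, VIM, CD44, AXL, CAV1, S100A4, MSN, KRT8 and KRT18, were all measured. Their summed intensities were 58033 to 60961 in shco4, 39523 to 40442 in shco2 and 65144 to 68440 in scramble. AXL had 1829, 2250 and 2449 in shco4, 8532, 8038 and 8312 in shco2 and 9141, 9003 and 9928 in scramble. In limma at an adjusted p under 0.05, AXL was lower and CD44 higher with shco4. With shco2, 7 were lower, all but AXL, and 0 were higher. Of all 11963 genes, 11.6% were lower and 10.7% higher with shco4, and 11% lower and 13.3% higher with shco2. The 14 luminal breast markers summed to 7621 to 8130 in shco4, 4825 to 4949 in shco2 and 7848 to 9259 in scramble. KRT19, the brightest, had 4690, 4641 and 4393 in shco4, 2107, 2186 and 2194 in shco2 and 5848, 4180 and 4944 in scramble. EPCAM was low in shco4 instead, with 229, 220 and 242 in shco4, 549, 477 and 506 in shco2 and 541, 550 and 610 in scramble. By the same limma threshold, 2 of the 14, EPCAM and ERBB3, were lower with shco4 and 1 was higher. With shco2, 4 were lower and 0 higher. XBP1, ERBB2, GATA3, EPCAM and AGR2 had mean intensities of 707, 637, 561, 436 and 312. PGR and FOXA1 were at the floor on all 9 arrays. The 9 fibroblast markers summed to 514 to 610 in shco4, 307 to 365 in shco2 and 292 to 379 in scramble. LUM made up the excess in shco4: without it the sums were 314 to 386 in shco4, 303 to 351 in shco2 and 273 to 354 in scramble. FAP and POSTN were at the floor on all 9 arrays. The part of these markers in the results below was not tested.

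On the probe set used for each gene, replication genes called against scramble were all lower with shco4 and all higher with shco2. With shco4, 34 of 55 members were lower than in scramble and 0 were higher, against 9.75% of all 22215 probe sets lower and 9.05% higher (limma, adjusted p under 0.05). The probe sets include 2611 at the floor on all arrays. Of all 11963 genes with 1 probe set each, as for the members, 11.6% were lower and 10.7% higher. At an unadjusted p under 0.05, limma gave 43 lower members and 1 higher, ORC4. The shares of all probe sets at an unadjusted p under 0.05, or at 2-fold, were not counted, here or below. The median difference over the members was -0.71, against 0.00 over all probe sets, and 14 members were at least 2-fold lower. With shco2, 17 of 55 members were higher than in scramble and 0 were lower, against 10.7% of all probe sets higher and 9.95% lower. Of all genes, 13.3% were higher and 11% lower. At an unadjusted p under 0.05, limma gave 28 higher members and 0 lower. The median was 0.39, and 3 members were at least 2-fold higher. Both comparisons share the 3 scramble arrays, so their directions are not independent of each other.

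Set directly against shco2, 46 of 55 members were lower in shco4 and 0 were higher, with 49 lower and 0 higher at an unadjusted p under 0.05 in limma. Of all probe sets, 16.1% were lower and 14.9% higher in this comparison, and of all genes with 1 probe set each 19.4% and 16.1%. Its median over the members was -1.15, against 0.00 over all probe sets, and 32 members were at least 2-fold lower. The arrays themselves showed the same layering. Every shco4 array lay below every scramble array for 41 of 55 members (74.5%), against 15.9% of all probe sets. For 26 of 55 members (47.3%) the shco4 arrays lay lowest, the scramble arrays between and the shco2 arrays highest, with no overlap, against 4.65% of all probe sets. Both shares without overlap were counted over probe sets and not over genes.

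**Figure D1:**
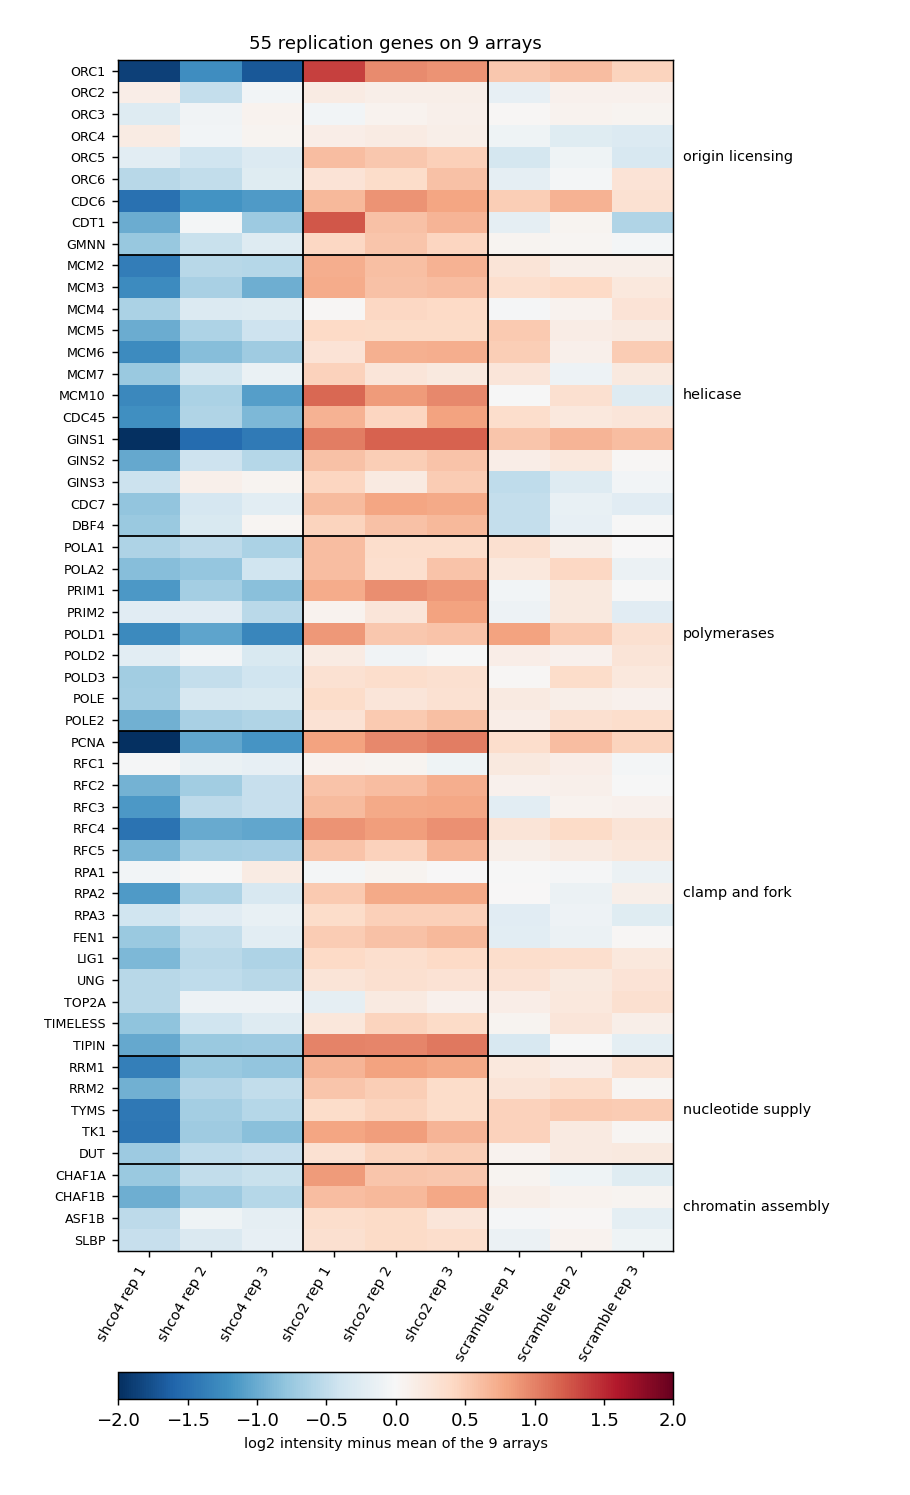
Log2 intensity of the 55 members on each of the 9 arrays, as the difference from the gene's own mean over the 9 arrays, with members in rows by step and arrays in columns; blue is below and red above that mean, and the colour scale ends at 2 either way. The median member sits at -0.85, -0.51 and -0.46 on the shco4 arrays, at 0.50, 0.48 and 0.57 on the shco2 arrays and at 0.11, 0.12 and 0.08 on the scramble arrays.

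Within the shco4 line the replicates were not even. The median deviation of the members from their own mean was -0.85 on shco4 replicate 1, -0.51 on replicate 2 and -0.46 on replicate 3. Replicate 1 was the lowest of its line for 47 of 55 members, against 36.6% of all probe sets. Without it, 31 members were called lower than scramble, 30 of them among the 34. The shco2 arrays lay close together, with median deviations of 0.50, 0.48 and 0.57, and so did the scramble arrays, at 0.11, 0.12 and 0.08.

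The promoters are shown because E2F and CCAAT motifs are the classical features of genes switched on at the G1/S border. The RefSeq table (GRCh38.p14) held a promoter for 50 of the 55 members, and the 250 bases before the first listed start were searched on both strands for the 4 octamers TTTCCCGC, TTTCGCGC, TTTGCCGC and TTTGGCGC and for CCAAT. An octamer was present in 13 of 50 members (26.0%), against 391 of 9563 array genes with a promoter in the table (4.09%). Among members lower with shco4, 9 of 32 (28.1%) had one, and among members not called, 4 of 18 (22.2%). CCAAT was present in 27 of 50 members (54.0%) against 35.6% of array genes, with 19 of 32 (59.4%) of the members lower with shco4 and 8 of 18 (44.4%) of the others. Members with an octamer differed from scramble in shco4 by -1.88 to -0.13, with a median of -0.80, and members without one by -2.37 to 0.25, with a median of -0.67. These 2 ranges overlapped almost fully, and a match is a description of letters, not a bound site.

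Stretches of 100 bases follow for 4 members with an octamer, PCNA, MCM6, TYMS and POLA1, and for 2 members with large shco4 differences and no octamer in the window, GINS1 and ORC1. Each is written 5′ to 3′ along the gene's strand, and capitals mark the octamers on either strand.
PCNA: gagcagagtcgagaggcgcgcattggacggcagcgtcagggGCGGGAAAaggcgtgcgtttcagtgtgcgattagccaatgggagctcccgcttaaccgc
MCM6: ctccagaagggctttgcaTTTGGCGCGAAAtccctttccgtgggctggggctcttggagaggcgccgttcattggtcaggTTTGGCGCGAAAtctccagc
TYMS: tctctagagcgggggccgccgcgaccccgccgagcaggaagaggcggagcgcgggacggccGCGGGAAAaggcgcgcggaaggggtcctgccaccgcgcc
POLA1: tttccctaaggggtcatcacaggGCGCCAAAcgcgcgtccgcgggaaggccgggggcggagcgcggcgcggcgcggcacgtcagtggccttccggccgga
GINS1: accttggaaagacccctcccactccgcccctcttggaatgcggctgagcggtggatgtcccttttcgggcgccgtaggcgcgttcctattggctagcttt
ORC1: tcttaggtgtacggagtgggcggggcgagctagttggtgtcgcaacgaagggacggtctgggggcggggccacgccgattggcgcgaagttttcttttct
The stretch of PCNA is chr20:5126623-5126722 on the minus strand, that of MCM6 is chr2:135876514-135876613 on the minus strand and that of TYMS is chr18:657553-657652 on the plus strand. The stretch of POLA1 is chrX:24693758-24693857 on the plus strand, that of GINS1 is chr20:25407573-25407672 on the plus strand and that of ORC1 is chr1:52404424-52404523 on the minus strand. PCNA, TYMS, GINS1 and ORC1 are shown from base -100 to base -1 before the start, MCM6 from -170 to -71 and POLA1 from -160 to -61. In MCM6 each run of capitals holds an octamer on one strand overlapped by an octamer on the other, 4 matches in all. All 6 genes are members called lower with shco4, and GINS1 and ORC1 were picked for large differences. These stretches therefore cannot show whether an octamer goes with the difference.

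In origin licensing, 3 of 9 members were lower with shco4, 3 of 9 were higher with shco2, and the step's median differences were -0.34 and 0.39. Counts of this and the later steps are to be read against all 11963 genes, 11.6% lower with shco4 and 13.3% higher with shco2. Between the hairpins, 19.4% of all genes were lower in shco4. ORC1, the ATPase subunit of the origin recognition complex that is made anew in each cycle, had 25.2, 38.7 and 28.2 in shco4, 235, 176 and 171 in shco2 and 133, 141 and 124 in scramble. Its 3 lines did not overlap, and it was 4.38-fold lower with shco4 than in scramble (-2.13 ± 0.19 SE, adjusted p = 0.00109). Its shco4 arrays lay near the floor, and with a floor of 64 the difference was -1.05. CDC6, which brings the MCM ring to origins, had 263, 325 and 338 in shco4, 1162, 1379 and 1284 in shco2 and 1050, 1200 and 916 in scramble. The shco4 arrays lay far below both other lines, which overlapped each other. The difference from scramble was -1.77 ± 0.14 in shco4 (adjusted p = 0.000741) and 0.28 in shco2 (adjusted p = 0.234), and a second CDC6 probe set gave -2.12 in shco4.

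ORC5, another subunit of the origin recognition complex, had 536, 472 and 514 in shco4, 954, 897 and 860 in shco2 and 486, 582 and 496 in scramble. The shco4 and scramble arrays overlapped, and only the shco2 arrays stood apart, at 0.80 ± 0.08 above scramble (adjusted p = 0.00166), while the shco4 difference was -0.04 (adjusted p = 0.915). The difference between the hairpins for ORC5 was -0.83. ORC4, a further subunit, had 1355, 1157 and 1261 in shco4, 1329, 1351 and 1310 in shco2 and 1142, 1026 and 1004 in scramble. All arrays of both hairpin lines lay above all scramble arrays. ORC4 was 0.33 ± 0.07 higher with shco2 (adjusted p = 0.0177) and differed by 0.25 with shco4 (adjusted p = 0.0513, or 0.0428 with a block for the replicate number), the highest shco4 difference among the members. ORC2 and ORC3 passed the test in none of the 3 comparisons, with shco4 differences of -0.14 and -0.13 from scramble, and ORC6 passed only against shco2 (-0.84, adjusted p = 0.00567). ORC6 differed from scramble by -0.45 in shco4 (adjusted p = 0.0847, or 0.00295 with the block).

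Geminin (GMNN), which binds CDT1 and keeps origins from being licensed again, had 1457, 1812 and 2053 in shco4, 3273, 3613 and 3290 in shco2 and 2539, 2534 and 2385 in scramble. The lines did not overlap. GMNN was lower with shco4 (-0.50 ± 0.12, adjusted p = 0.0331, or 0.0522 with the block) and higher with shco2 (0.45, adjusted p = 0.0447, or 0.0657 with the block), and the block ended both calls. CDT1, also picked for its values per array after they were seen, had 98.7, 191 and 119 in shco4, 464, 294 and 313 in shco2 and 173, 203 and 129 in scramble. Its shco2 arrays were the highest, while shco4 and scramble overlapped, and the widely spread replicates left both differences from scramble uncalled (-0.34 in shco4 with adjusted p = 0.557, and 1.08 in shco2 with adjusted p = 0.0549). Only the difference between the hairpins was called for CDT1 (-1.42, adjusted p = 0.0143).

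**Figure D2:**
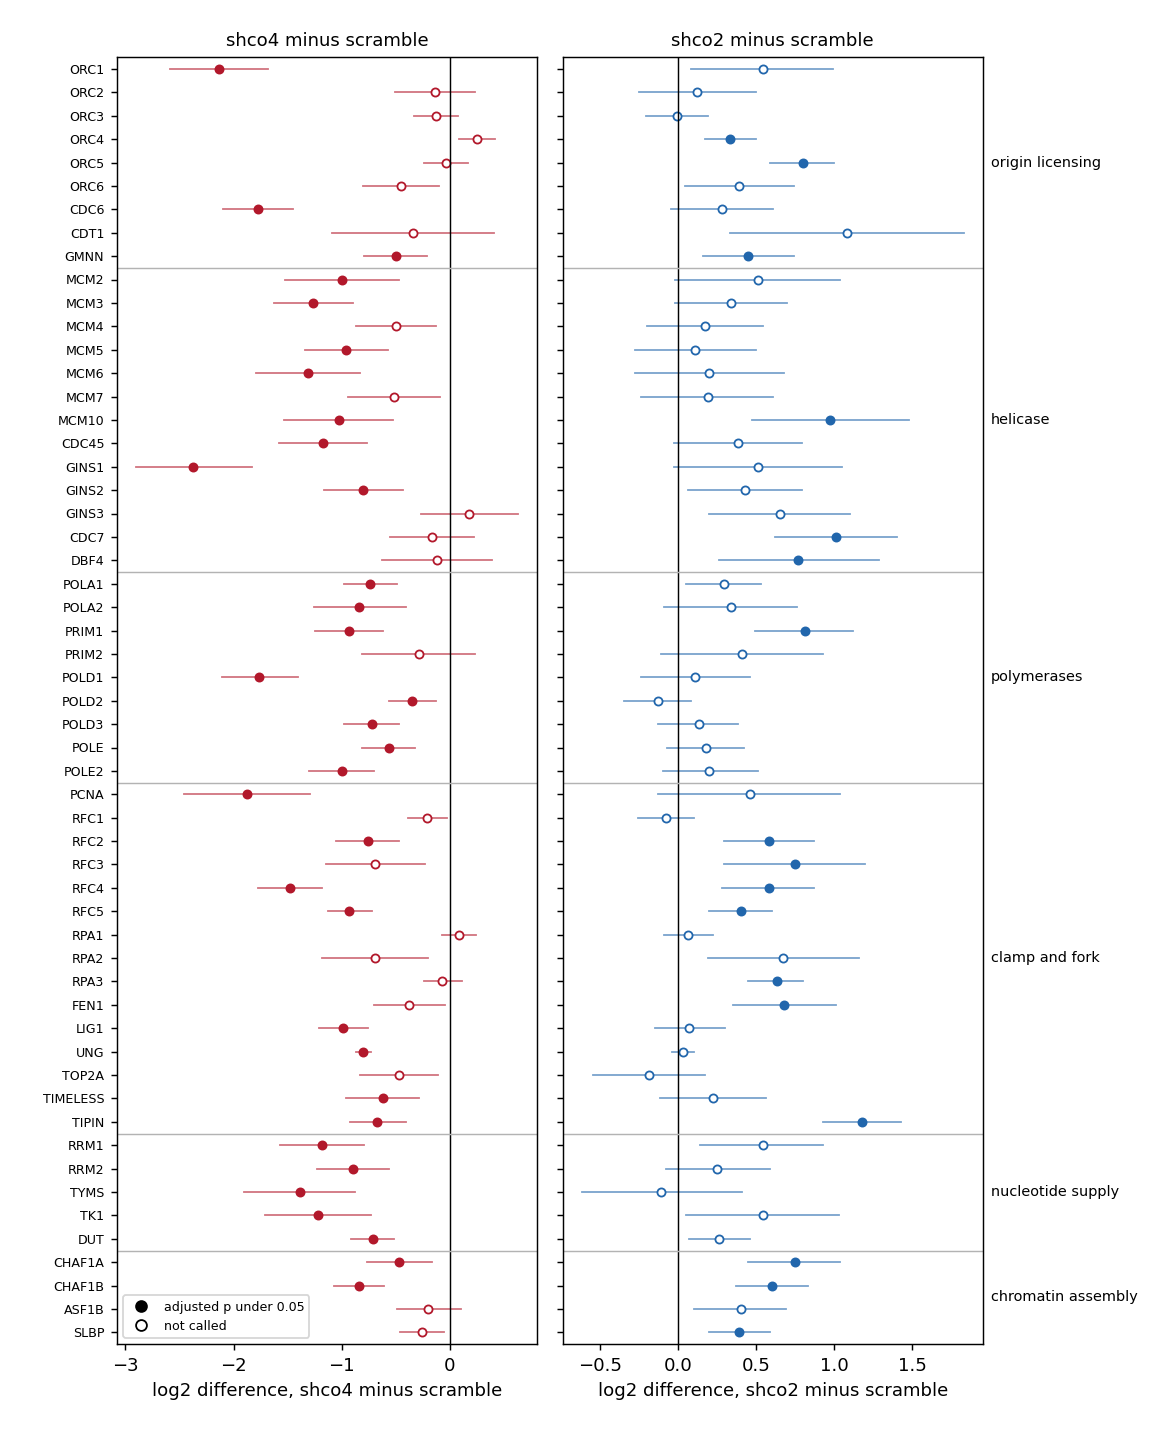
Log2 difference of each member from scramble, shco4 on the left and shco2 on the right, with 95% confidence intervals (n = 3 arrays a line) and members grouped by step; filled points passed an adjusted p under 0.05. The shco4 points lie between -2.37 and 0.25 and the shco2 points between -0.19 and 1.18.

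Of the 13 helicase genes, 8 were lower with shco4, 3 were higher with shco2 and 12 were lower in shco4 than in shco2. The step's median differences from scramble were -0.96 in shco4 and 0.43 in shco2. GINS1, a subunit of the GINS complex that joins CDC45 and the MCM ring, had 119, 202 and 220 in shco4, 1195, 1325 and 1324 in shco2 and 860, 938 and 896 in scramble. The lines did not overlap, and GINS1 had the largest shco4 difference of all members, 5.16-fold lower than scramble (-2.37 ± 0.22, adjusted p = 0.00131) and 7.35-fold lower than shco2. Its shco2 difference of 0.51 was not called (adjusted p = 0.179). Among its partners, GINS2 was lower with shco4 (-0.80 ± 0.15, adjusted p = 0.0145). GINS3 had 112, 162 and 157 in shco4, 204, 171 and 216 in shco2 and 106, 126 and 146 in scramble. Its shco4 and scramble arrays overlapped, and it was the single helicase member with a positive shco4 difference (0.18, adjusted p = 0.617).

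Of the 6 subunits of the MCM ring, MCM2, MCM3, MCM5 and MCM6 were called lower with shco4. MCM3 had 1141, 1752 and 1393 in shco4, 4579, 4101 and 4185 in shco2 and 3434, 3582 and 3149 in scramble. Its lines did not overlap, and the shco4 difference from scramble was -1.27 ± 0.15 (adjusted p = 0.00288). MCM6 had 883, 1167 and 1288 in shco4, 2559, 3446 and 3504 in shco2 and 2979, 2271 and 3000 in scramble. Here the shco2 and scramble arrays overlapped, and the shco4 arrays lay below both (-1.31 ± 0.20 against scramble, adjusted p = 0.00652). MCM5 (-0.96 ± 0.16, adjusted p = 0.00948) and MCM2 (-1.0 ± 0.22, adjusted p = 0.0239) were also lower with shco4. MCM4 and MCM7 were not called on the brightest probe set, with -0.50 (adjusted p = 0.0697, or 0.0103 with the block) and -0.52 (adjusted p = 0.0967). Their other probe sets gave -0.62 for MCM7 (adjusted p = 0.0201) and down to -0.75 for MCM4, with 2 of its 4 probe sets called, so these 2 genes depend on the probe set. No ring subunit was called higher with shco2, and MCM5, MCM6 and MCM7 differed there by 0.11, 0.20 and 0.19.

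CDC45, the helicase cofactor, had 169, 260 and 211 in shco4, 643, 531 and 691 in shco2 and 502, 458 and 465 in scramble. Its lines did not overlap, and it was lower with shco4 (-1.17 ± 0.17, adjusted p = 0.0054). MCM10, which helps to start the helicase, had 237, 371 and 269 in shco4, 1282, 1046 and 1130 in shco2 and 575, 722 and 485 in scramble. It was lower with shco4 (-1.03 ± 0.21, adjusted p = 0.0184) and higher with shco2 (0.97 ± 0.21, adjusted p = 0.0201), and its lines did not overlap. The kinase CDC7 had 306, 419 and 457 in shco4, 824, 915 and 894 in shco2 and 382, 477 and 453 in scramble. As for ORC5, only the shco2 arrays stood apart (1.01 ± 0.16, adjusted p = 0.00667, against -0.17 in shco4 with adjusted p = 0.582). Its activating partner DBF4 was higher with shco2 (0.77 ± 0.21, adjusted p = 0.0467), with -0.12 in shco4.

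Among the polymerases and primases, 8 of 9 members were lower with shco4 and 1 of 9, PRIM1, was higher with shco2. That shco2 count lay near the share of all genes, 13.3%. The median differences from scramble were -0.74 in shco4 and 0.20 in shco2, the smallest shco2 median of the 6 steps. POLD1, the catalytic subunit of polymerase delta, had 210, 243 and 204 in shco4, 920, 734 and 751 in shco2 and 878, 728 and 632 in scramble. The shco2 and scramble arrays overlapped while the shco4 arrays lay 3.38-fold below scramble (-1.76 ± 0.15, adjusted p = 0.000945). POLE2, a subunit of polymerase epsilon, had 327, 406 and 417 in shco4, 773, 908 and 967 in shco2 and 695, 790 and 809 in scramble. The shco2 and scramble arrays overlapped here too, and POLE2 was lower with shco4 (-1.0 ± 0.13, adjusted p = 0.00347). POLA1, the catalytic subunit of polymerase alpha, had 297, 317 and 292 in shco4, 694, 577 and 582 in shco2 and 565, 494 and 457 in scramble, in layers that did not overlap. POLA1 was lower with shco4 (-0.74 ± 0.10, adjusted p = 0.00459).

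PRIM1, the primase that lays the RNA primer, had 239, 330 and 296 in shco4, 888, 1012 and 966 in shco2 and 508, 606 and 528 in scramble. No arrays of the 3 lines overlapped. PRIM1 was lower with shco4 (-0.93 ± 0.13, adjusted p = 0.00487) and higher with shco2 (0.81 ± 0.13, adjusted p = 0.00711). PRIM2, its partner subunit, passed neither test (-0.29 in shco4 with adjusted p = 0.468, and 0.41 in shco2). POLD3 (-0.72, adjusted p = 0.0058), POLE (-0.56, adjusted p = 0.0124) and POLA2 (-0.84, adjusted p = 0.0209, or 0.0568 with the block) were lower with shco4 as well. POLD2, an accessory subunit of polymerase delta, had 1033, 1146 and 970 in shco4, 1334, 1131 and 1188 in shco2 and 1314, 1260 and 1430 in scramble. Its shco4 arrays lay below scramble but overlapped with shco2. POLD2 had the smallest called difference of the step (-0.35, adjusted p = 0.0393, or 0.0838 with the block), and its difference between the hairpins, -0.21, was not called (adjusted p = 0.127).

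**Figure D3:**
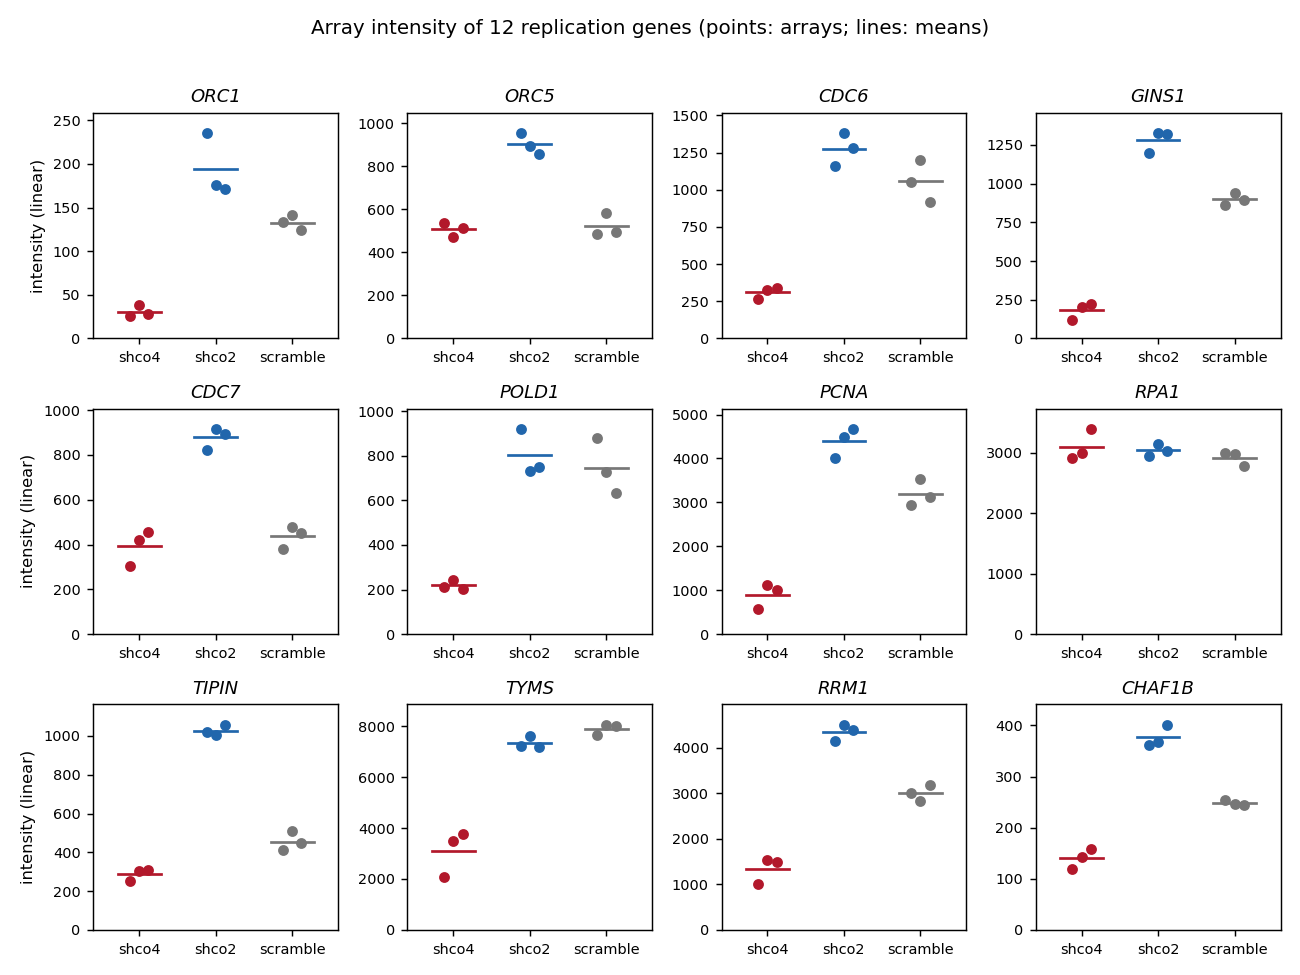
Intensity on a linear scale of 12 members on each array, in arbitrary units, shown as 3 points per line for shco4, shco2 and scramble, with the mean as a bar; each panel has its own axis from 0. GINS1, PCNA, RRM1, CHAF1B and TIPIN stand in 3 separate layers, ORC5 and CDC7 are high in shco2 only, POLD1, CDC6 and TYMS are low in shco4 only, and RPA1 is level at 2773 to 3388.

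Among the clamp and fork genes, 8 of 15 were lower with shco4 and 7 of 15 were higher with shco2, with median differences of -0.69 and 0.46. PCNA, the sliding clamp, had 579, 1116 and 1011 in shco4, 4017, 4492 and 4668 in shco2 and 2937, 3524 and 3128 in scramble. PCNA was picked for its values per array after these were seen. The lines did not overlap, and PCNA was 3.67-fold lower with shco4 than in scramble (-1.88 ± 0.24, adjusted p = 0.00378) and 5.05-fold lower than with shco2. The shco2 difference from scramble was 0.46 (adjusted p = 0.271).

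The clamp loader has 1 large subunit, RFC1, and 4 small ones. RFC4 had 495, 683 and 667 in shco4, 2559, 2449 and 2585 in shco2 and 1646, 1794 and 1645 in scramble. RFC5 had 387, 455 and 461 in shco4, 1082, 1005 and 1169 in shco2 and 791, 825 and 852 in scramble. Both stood in 3 separate layers. RFC4 was lower with shco4 (-1.48 ± 0.12, adjusted p = 0.000941) and higher with shco2 (0.58, adjusted p = 0.0188), and so was RFC5 (-0.93 ± 0.08, adjusted p = 0.00118, and 0.40, adjusted p = 0.0185). A dimmer RFC5 probe set gave 0.11 in shco4 (adjusted p = 0.819) and 0.34 in shco2 (adjusted p = 0.312), neither called. RFC2 was likewise lower with shco4 (-0.76, adjusted p = 0.00739) and higher with shco2 (0.58, adjusted p = 0.0176). RFC3 was higher with shco2 (0.75, adjusted p = 0.0365), with -0.69 in shco4 (adjusted p = 0.051, or 0.022 with the block), and its second probe set was called lower with shco4 (-0.79, adjusted p = 0.0448). RFC1, the large subunit, had 748, 695 and 680 in shco4, 806, 793 and 719 in shco2 and 877, 837 and 747 in scramble. All 3 lines overlapped, and its differences from scramble were -0.21 in shco4 (adjusted p = 0.107, or 0.0135 with the block) and -0.08 in shco2. A second RFC1 probe set, with a mean of 533, was called lower with shco4 (-0.31, adjusted p = 0.0294) and also lower with shco2 (-0.47, adjusted p = 0.00617), so the calls of RFC1 depend on the probe set.

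The 3 subunits of RPA, the trimer that coats single-stranded DNA, gave unlike values. RPA1, the largest, had 2908, 2991 and 3388 in shco4, 2946, 3146 and 3032 in shco2 and 2990, 2980 and 2773 in scramble. All lines overlapped, with differences of 0.08 in shco4, 0.06 in shco2 and 0.02 between the hairpins. RPA3, the smallest, had 1472, 1654 and 1743 in shco4, 2494, 2671 and 2690 in shco2 and 1651, 1804 and 1639 in scramble. Only its shco2 arrays stood apart (0.63 ± 0.07, adjusted p = 0.00214, against -0.07 in shco4). RPA2 differed by -0.69 in shco4 (adjusted p = 0.061, or 0.0466 with the block) and by 0.67 in shco2 (adjusted p = 0.0635, or 0.0469 with the block). It was called between the hairpins (-1.37).

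TIPIN and TIMELESS form the complex that protects stalled forks. TIPIN had 250, 304 and 308 in shco4, 1021, 1004 and 1057 in shco2 and 411, 508 and 446 in scramble. It was in 3 separate layers and was the member with the largest shco2 difference, 2.27-fold above scramble (1.18 ± 0.10, adjusted p = 0.000946), while it was lower with shco4 (-0.67 ± 0.10, adjusted p = 0.00715). TIMELESS was lower with shco4 on its brightest probe set (-0.62, adjusted p = 0.0264), but a dim second probe set gave 0.09 (adjusted p = 0.973).

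LIG1, the ligase that seals Okazaki fragments, had 266, 341 and 323 in shco4, 652, 622 and 653 in shco2 and 633, 627 and 573 in scramble. UNG, which removes uracil from new DNA, had 946, 980 and 954 in shco4, 1662, 1737 and 1710 in shco2 and 1711, 1606 and 1685 in scramble. In both, shco2 and scramble overlapped and shco4 lay below them. LIG1 was lower with shco4 by -0.99 ± 0.09 (adjusted p = 0.00134). UNG had the tightest replicates of the members called with shco4 (-0.80 ± 0.03, adjusted p = 0.000164) and an shco2 difference of 0.03. FEN1, the flap nuclease, was higher with shco2 (0.68 ± 0.14, adjusted p = 0.0156) and differed by -0.38 with shco4 (adjusted p = 0.115, or 0.0375 with the block). TOP2A, the topoisomerase that untangles DNA, had 1821, 2478 and 2501 in shco4, 2370, 3026 and 2829 in shco2 and 2929, 3092 and 3343 in scramble. It was the member with the most negative shco2 difference (-0.19), and its shco4 difference of -0.47 was not called (adjusted p = 0.0769, or 0.0209 with the block).

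Nucleotide supply was the only step in which every member was called lower with shco4, 5 of 5, with a median difference of -1.18. On the probe set used, none of the 5 was called higher with shco2, where limma gave 3 higher at an unadjusted p under 0.05 and the median was 0.26. RRM1, the large subunit of ribonucleotide reductase, had 1002, 1537 and 1500 in shco4, 4152, 4502 and 4385 in shco2 and 3000, 2830 and 3173 in scramble. It was in 3 separate layers and 2.27-fold lower with shco4 than in scramble (-1.18 ± 0.16, adjusted p = 0.00463). RRM2, the small subunit, had 1994, 2604 and 2758 in shco4, 5696, 5450 and 5026 in shco2 and 4635, 4979 and 3996 in scramble. It was lower with shco4 by -0.90 ± 0.14 (adjusted p = 0.00716), and a second probe set gave -1.88.

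TYMS, the thymidylate synthase that makes dTMP, had 2082, 3484 and 3779 in shco4, 7221, 7627 and 7201 in shco2 and 7662, 8054 and 7996 in scramble. All shco2 arrays lay just below all scramble arrays, and the difference of -0.11 was not called (adjusted p = 0.891). In shco4 TYMS was lower by -1.39 ± 0.21 (adjusted p = 0.0065). A dimmer TYMS probe set, with a mean of 49.2, gave -1.52 in shco4 and was called higher with shco2 (0.83, adjusted p = 0.00562), so the shco2 direction of TYMS depends on the probe set. DUT, which removes dUTP, had 2024, 2347 and 2422 in shco4, 4122, 4540 and 4683 in shco2 and 3506, 3793 and 3815 in scramble. Its lines did not overlap, and it was lower with shco4 (-0.71 ± 0.08, adjusted p = 0.00258), with 0.26 in shco2 (adjusted p = 0.0715). Another DUT probe set, with a mean of 2440, was called higher with shco2 (0.27, limma adjusted p = 0.00583). The shco2 call of DUT thus depends on the probe set. The thymidine kinase TK1 was lower with shco4 (-1.22 ± 0.20, adjusted p = 0.00899), with 0.54 in shco2 (adjusted p = 0.123).

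Of the 4 chromatin assembly genes, 2 were lower with shco4, 3 were higher with shco2 and all 4 were lower in shco4 than in shco2. The step's medians were -0.36 and 0.50 against scramble. CHAF1B, a subunit of the CAF-1 complex that deposits new histones behind the fork, had 120, 142 and 158 in shco4, 362, 367 and 401 in shco2 and 254, 247 and 245 in scramble. CHAF1A, the large CAF-1 subunit, had 276, 327 and 337 in shco4, 833, 680 and 672 in shco2 and 477, 434 and 390 in scramble. Both were in 3 separate layers. CHAF1B was lower with shco4 (-0.84 ± 0.10, adjusted p = 0.00258) and higher with shco2 (0.60 ± 0.10, adjusted p = 0.00679). CHAF1A was higher with shco2 (0.75 ± 0.12, adjusted p = 0.00769) and lower with shco4 at a value near the threshold (-0.47, adjusted p = 0.0444, or 0.0856 with the block). Its other probe sets gave -0.46 and -0.53 in shco4, neither called.

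SLBP, which binds the stem-loop of histone messages, had 2147, 2425 and 2629 in shco4, 3687, 3846 and 3755 in shco2 and 2732, 3103 and 2771 in scramble. It was higher with shco2 (0.39 ± 0.08, adjusted p = 0.0177), and its shco4 difference was -0.26 (adjusted p = 0.0766). ASF1B, a chaperone that hands histones to CAF-1, had 1133, 1532 and 1438 in shco4, 2080, 2131 and 1934 in shco2 and 1596, 1663 and 1415 in scramble. Its shco4 and scramble arrays overlapped, and it was called only between the hairpins (-0.59, adjusted p = 0.011).

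Sorted by their calls, the members fell into a few patterns. The share of all genes with each pattern was not counted, so these counts describe the members alone. Lower with shco4 and not called with shco2 were 24 that were also lower in shco4 than in shco2, among them ORC1, CDC6, GINS1, POLD1, PCNA, LIG1, UNG and all 5 nucleotide supply genes. Lower with shco4 and higher with shco2 were 9: GMNN, MCM10, PRIM1, RFC2, RFC4, RFC5, TIPIN, CHAF1A and CHAF1B. Higher with shco2, not called with shco4 against scramble and lower in shco4 than in shco2 were 7: ORC5, CDC7, DBF4, RFC3, RPA3, FEN1 and SLBP. POLD2 was called only as lower with shco4 than in scramble, and ORC4 only as higher with shco2 than in scramble. ORC6, CDT1, MCM4, MCM7, RPA2 and ASF1B were called only between the hairpins. ORC2, ORC3, GINS3, PRIM2, RFC1, RPA1 and TOP2A were called in none of the 3 comparisons.

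With each array left out in turn, 26 of the 34 shco4 calls were kept every time, as were 7 of the 17 shco2 calls and 43 of the 46 calls between the hairpins. The shco2 count moved by over 1.5 times without scramble replicate 1 (8 higher), replicate 2 (11) or replicate 3 (9), without shco2 replicate 1 (10), replicate 2 (10) or replicate 3 (7), and without shco4 replicate 1 (28). The shco4 count was 27, 26 and 30 without scramble replicates 1, 2 and 3. The shco4 call of GMNN was lost without any scramble or shco2 array or shco4 replicate 2 (adjusted p up to 0.0985), that of CHAF1A without any array but shco2 replicate 1 (up to 0.125), and that of POLD2 without any scramble array, shco2 replicate 3 or shco4 replicate 1 or 3 (up to 0.107). MCM2 lost its shco4 call without any scramble array (up to 0.0746) and TIMELESS without any scramble array or shco4 replicate 2 (up to 0.0864). MCM10 lost it without scramble replicate 1 or 2 or shco4 replicate 1 or 3 (up to 0.0546), POLA2 without scramble or shco4 replicate 1 or 2 (up to 0.0656) and GINS2 without scramble replicate 2 (0.0532).

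Among the shco2 calls, DBF4 and GMNN were lost without any scramble or shco2 array or shco4 replicate 2 (up to 0.131 and 0.13) and RFC3 without any scramble or shco2 array (up to 0.107). ORC4 was lost without any shco2 array or scramble replicate 2 or 3 (up to 0.0604). MCM10 and RFC4 were lost without scramble or shco2 replicate 1 or 3 (up to 0.0676 and 0.0632), and RFC5 without shco2 replicate 1 or 3, scramble replicate 1 or scramble replicate 2 (up to 0.0627). RFC2 and SLBP were lost without shco2 replicate 2 or 3, scramble replicate 1 or scramble replicate 3 (up to 0.0619 and 0.061), and FEN1 without shco2 replicate 2 or 3, scramble replicate 1 or scramble replicate 2 (up to 0.0564). Between the hairpins, DBF4 was lost without shco2 replicate 2 or 3 or shco4 replicate 2 (up to 0.0636), MCM4 without shco2 replicate 2 or 3 (up to 0.058) and MCM7 without any shco2 array or shco4 replicate 2 (up to 0.0768). With only the 6 arrays of the comparison fitted, the shco4 calls of GMNN, CHAF1A, POLD2, MCM2, MCM10, GINS2, POLA2, TIMELESS and POLE were lost and the count was 25. ORC4 in shco2 was also lost on its other probe set (adjusted p = 0.0967), and DUT in shco4 on its probe set without an _s_at or _x_at suffix (adjusted p = 0.0782). Leaving out an array turned the direction of none of these calls, while TIMELESS in shco4 turned on its other, dim probe set, as given above.

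Genes around the members were counted from lists of their own, to be read against all 11963 genes with 1 probe set each, of which 11.6% were lower and 10.7% higher with shco4, and 11% lower and 13.3% higher with shco2. Of 42 measured other replication genes, 16 were lower and 0 higher with shco4, with 24 lower and 5 higher at an unadjusted p under 0.05 in limma, and 12 were higher and 2 lower with shco2. Their medians were -0.37 in shco4 and 0.15 in shco2. DNA2, a nuclease of Okazaki fragments, had 135, 153 and 140 in shco4, 251, 281 and 297 in shco2 and 260, 300 and 261 in scramble, and was lower with shco4 by -0.94 (adjusted p = 0.00128). Of 22 recombination and mismatch repair genes, 9 were lower and 1 higher with shco4, while 9 were higher and 0 lower with shco2 (12 higher and 0 lower at an unadjusted p under 0.05 in limma). The mismatch sensor MSH6 was among those in both counts, at -0.65 in shco4 (adjusted p = 0.00565) and 0.39 in shco2 (adjusted p = 0.0303). With 1 array left out, the count of other replication genes lower with shco4 ranged from 7 without scramble replicate 2 to 16, being 8 without scramble replicate 1 and 10 without shco2 replicate 1 or shco4 replicate 1. That of repair genes higher with shco2 ranged from 4 without shco2 replicate 1 or 3 to 10.

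The regulators of the G1/S step were measured too. Of 16 E2F factors and RB family genes, 5 were lower and 1 higher with shco4, and 3 were higher and 1 lower with shco2. The count of 5 was 1 without scramble replicate 1, 2 without scramble replicate 2 and 3 without shco2 replicate 2 or 3. E2F1 had 150, 191 and 164 in shco4, 826, 599 and 444 in shco2 and 482, 377 and 350 in scramble. It was lower with shco4 (-1.26, adjusted p = 0.0155), with 0.60 in shco2 (adjusted p = 0.152). Of 17 G1/S cyclins, kinases and inhibitors, 8 were lower and 2 higher with shco4, and 7 were higher and 3 lower with shco2. The count of 7 was 4 with any 1 shco2 array left out, and the count of 3 was 1 without scramble replicate 3.

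Cyclin E2 (CCNE2) had 157, 220 and 217 in shco4, 1024, 1361 and 1300 in shco2 and 496, 695 and 855 in scramble, in 3 separate layers. It was lower with shco4 (-1.77, adjusted p = 0.00443) and higher with shco2 (0.87, adjusted p = 0.0467). CDKN1A (p21), a cyclin-dependent kinase inhibitor, moved in the same directions as the replication genes, with 616, 646 and 495 in shco4, 1597, 1405 and 1362 in shco2 and 979, 907 and 964 in scramble (-0.71 in shco4, adjusted p = 0.00721, and 0.61 in shco2, adjusted p = 0.0107). CDKN1B (p27), another such inhibitor, moved the other way in shco4, with 2017, 1875 and 1885 in shco4, 978, 1296 and 878 in shco2 and 868, 931 and 807 in scramble. It was higher with shco4 (1.15, adjusted p = 0.0032) and not called with shco2 (0.26, adjusted p = 0.292). CDKN1C, a further inhibitor, moved against the replication genes in both lines on the brightest of its 5 probe sets. It was higher with shco4 (1.84, adjusted p = 0.00582) and lower with shco2 (-1.38, adjusted p = 0.0148). SKP2, the ubiquitin ligase subunit that targets p27, had 369, 418 and 430 in shco4, 813, 747 and 825 in shco2 and 1028, 1043 and 1035 in scramble. It was lower with both hairpins, by -1.35 in shco4 (adjusted p = 0.000248) and by -0.38 in shco2 (adjusted p = 0.00785).

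Genes of mitosis and histone genes closed the set of lists. Of 38 mitosis and spindle genes, 4 were lower and 0 higher with shco4 (16 lower and 0 higher at an unadjusted p under 0.05 in limma), 3 were higher and 2 lower with shco2, and the medians were -0.33 and -0.02. Their shares lay close to or below those of all genes, 11.6% lower with shco4 and 13.3% higher and 11% lower with shco2. The count of 4 was 1 without scramble replicate 1, 0 without scramble replicate 2 and 2 without scramble replicate 3. Of 16 histone genes whose messages are made in S phase, 10 were higher and 0 lower with shco4 (also 10 and 0 at an unadjusted p under 0.05 in limma), 1 was lower with shco2, and the medians were 1.16 and 0.04. Among the 16, H1-5, H2AC8 and H3C8 lay at the floor on all 9 arrays and entered the medians as 0. H1-3, called higher with shco4, lay at the floor on 3 arrays. H1-2 had 5115, 4093 and 4233 in shco4, 547, 757 and 577 in shco2 and 656, 562 and 675 in scramble. It was 7.09-fold higher with shco4 (2.83, adjusted p = 0.000266), with no overlap between shco4 and the other lines. The array kit primes from poly(A), which most messages of these histone genes lack. Which transcripts of these genes gave the values was not tested. Whether any of these lists differs from the members was not tested.

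**Figure D4:**
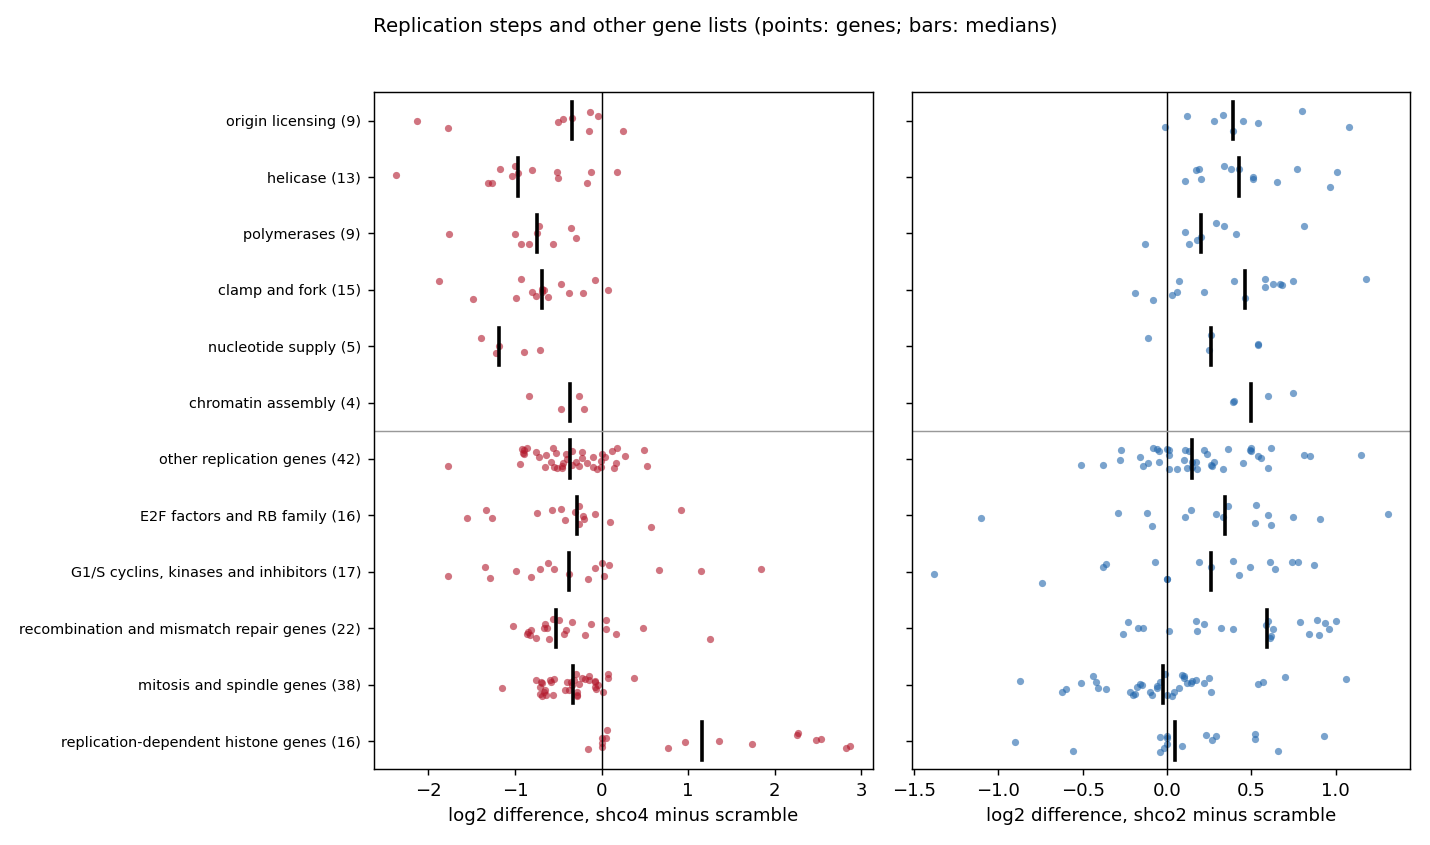
Log2 difference from scramble of each gene (points) and the median (bar) of the 6 steps, above the grey line, and of 6 other gene lists, below it, with shco4 on the left and shco2 on the right; the number of genes is in parentheses and the 2 panels have different scales. In shco4 the step medians lie between -1.18 and -0.34 and the histone median at 1.16, and in shco2 the step medians lie between 0.20 and 0.50.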

How the data were processed

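RNA from the shco4, shco2 and scramble lines was hybridized to Affymetrix 3′ arrays after labelling of 200 ng of total RNA as biotin-cRNA, per the labels' protocols. The deposited table holds linear intensity values for 22277 probe sets, and the mean without the lowest and highest 2% lay near 500.1 on every array, as tested on the values. Which software summarised the probe sets is not stated in the labels or the file. Array medians of intensity ran from 122.4 to 129.3. The number of arrays limits the precision.

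Groups and replicate numbers came from the labels. The 62 control probe sets were left out, values under 16 were set to 16, log2 was taken, and 22215 probe sets were tested with no filter on dim ones. The platform annotation gave 1 symbol to 19064, several to 1043 and none to 2108 of them, and 2611 lay at the floor on all arrays. Genes were named from probe sets with 1 symbol. Probe sets ending in _s_at or _x_at can share sequence with related transcripts, and a probe set's level was set against no other's.

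The 9 arrays entered a single linear model with 1 mean per line, fitted in R 4.3.3 with limma 3.58.1 (lmFit, eBayes, prior degrees of freedom 0.53). Tests were two-sided, Benjamini-Hochberg adjustment ran over all 22215 probe sets of a comparison, and a call was an adjusted p under 0.05. Errors after ± are standard errors, n = 3 arrays per line. The fit was tested on simulated data. Replicate numbers were tested for pairing: the deviations of same-numbered shco4 and scramble arrays from their line means correlated at 0.235, 0.133 and 0.233, all above 0.1, so a value with the replicate number as a block is given beside shco4 results where it changes the call. Calls that the block changed in the comparisons with shco2 are named in the last section. Alternatives covered the floor, normalization, dim probe sets, the block, the prior, the arrays fitted, the probe set of a gene and each array left out.

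All members may be named. Values per array are given in each step for at most 4 members, those of smallest p in shco4 against scramble, at most 2 in shco2 against scramble and those whose direction went against most of their step; PCNA and CDT1 were added after their values were seen. Of other lists, up to 4 genes by smallest p, E2F1, CCNE2, CDKN1A and CDKN1B could be named. CDKN1C was added after its values were seen. The members and the 9 lists beside them were chosen with earlier results of these data known. Promoter sequences are RefSeq's (GRCh38.p14). For 13 members with several starts the first listed was used, and 5 members without an entry are MCM4, MCM5, POLD3, RPA2 and RPA3.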

Additional observations from a re-analysis of the deposited data

Results flagged for a closer look

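9 members were called lower with shco4 and higher with shco2 against the same scramble arrays. The share of all genes with such opposite calls was not counted. For each of the 9, limma also called the direct difference of shco4 minus shco2. That log2 difference was -2.05 for RFC4, -2.0 for MCM10, -1.84 for TIPIN, -1.74 for PRIM1, -1.44 for CHAF1B, -1.34 for RFC2, -1.32 for RFC5, -1.22 for CHAF1A and -0.95 for GMNN. Because the genes were picked by opposite calls against shared arrays, the sign of this difference is fixed by that choice and its call is a description. With each array left out in turn, PRIM1, TIPIN and CHAF1B kept both calls against scramble. The groups of 3 arrays were too small to look for single outlying arrays.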

How the results depend on the processing

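The count of members lower with shco4 was 34, and ranged from 25 with only the 6 arrays compared to 40 with dim probe sets left out. Leaving out each array gave 26 to 35. The count of 0 higher with shco4 became 1 under quantile normalization, under median centring and with the replicate block, and 0 to 1 with an array left out. The count of 17 higher with shco2 was 15 to 25 under the other alternatives run, 26 with only the 6 arrays compared and 7 to 28 with an array left out. The count of 0 lower with shco2 became 1 with the mean over probe sets of a gene. The count of 46 lower in shco4 than in shco2 stayed between 43 and 48 in all alternatives and with each array left out. The order of the 3 lines without overlap held for 25 to 31 members in the alternatives added after seeing the data. The count of promoters with an octamer was 18 in place of 13 with any listed start, and also 18 with the 50 bases after the start added. For these changes the cause was not tested.

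The replicate number as a block gave 37 members lower and 1 higher with shco4: it ended the calls of GMNN, POLA2, POLD2 and CHAF1A, gained 7 lower and 1 higher, and kept 30. For the comparisons with shco2 the numbers are shared without every pair correlating above 0.1 (0.29, 0.0571 and 0.255 for shco2 and scramble, 0.178, 0.0576 and 0.213 for shco4 and shco2), though every array correlated best with its own number. The block gave 21 higher with shco2, ending the call of GMNN. It gained ORC6 (adjusted p = 0.00302), GINS3 (0.0475), POLE2 (0.0151), RPA2 (0.0469) and DUT (0.00612) as higher with shco2. Between the hairpins it gave 46 lower in shco4 than in shco2, ending the call of MCM7 and gaining RFC1.

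One call turned: TIMELESS in shco4 gave 0.09 (adjusted p = 0.973) with probe sets without an _s_at or _x_at suffix. Over single members, the alternatives without an array left out kept 931 calls and directions and ended 38, and leaving out arrays kept 778 and ended 95.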
